A study of Saccharomyces cerevisiae with 262 samples.

Results

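IME1, RME1 and PHD1 encode regulators of developmental choices in budding yeast, and their transcripts were followed through a cross of a laboratory and a vineyard strain. They were taken by gene symbol, as 3 of the 5605 named genes on the arrays, and each had 1 of the 7085 probes. IME1 (YJR094C) lies on chromosome X, RME1 (YGR044C) on chromosome VII and PHD1 (YKL043W) on chromosome XI. The genes were chosen with earlier results of these data known, so their levels by parent and by mating type are given as a description, with no test.

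Ime1 is the activator that starts meiosis: it joins the repressor Ume6 at the promoters of early meiotic genes and turns them on when a diploid cell starves. Rme1 is a zinc-finger repressor of IME1 that is made in haploid cells and shut off in diploids by the a1-alpha2 repressor, so that haploids do not enter meiosis. Phd1 is a DNA-binding activator of filamentous (pseudohyphal) growth, a close relative of Sok2, and Rme1 is also known to act at the promoter of FLO11, the cell-surface flocculin needed for that growth.

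The study used 262 2-colour arrays in 131 dye-swap pairs, in which the same strain was labelled once with Cy5 and once with Cy3. Every array set a strain against pooled RNA of BY4716, so a level here is a log2 ratio of the strain's own RNA over that pool, and 0 means the level of the pool. BY4716 (BY), a haploid laboratory strain isogenic to S288c, gave 6 pairs. RM11-1a (RM), the vineyard isolate, gave 12 pairs under 6 replicate numbers, and repeats of a number were averaged. The haploid segregants of the cross each gave 1 pair, and 95 of them carry titles that begin with 1 to 20 and 18 titles that begin with 21 to 26. The labels call all strains haploid but state no growth medium, growth phase or marker genotype for them, and they do not say whether replicates of a parent were separate cultures, so p-values for the parents measure only the spread between these samples.

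The direction of the ratio and its base are not stated in the labels. Own RNA over pool on a log2 scale is the likely reading, because LEU2 and URA3, which RM11-1a is known to lack, had RM means of -5.93 and -4.87, and because the mating-type genes ran the same way. Each array carried values for 3597 to 6581 probes. Segregants were split by STE2, the alpha-factor receptor of a cells, at a level of 2.3, which gave 55 a and 57 alpha segregants and left 1 without a STE2 value. STE2 averaged 4.67 ± 0.79 (SD, n = 55) in a segregants, 5.13 in RM and -0.02 ± 0.60 (SD, n = 57) in alpha segregants, and the nearest values on either side of the split were 2.09 and 2.49. STE3, the a-factor receptor of alpha cells, averaged -5.13 ± 1.26 (SD, n = 55) in a and -0.41 ± 1.33 (SD, n = 57) in alpha segregants, and 6 a and 3 alpha segregants had a STE3 level nearer the other parent's mean.

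The parents lay within 0.31 log2 units of each other on average in these genes. IME1 stood at 0.00, 0.05, 0.02, 0.03, 0.00 and -0.01 in the 6 BY replicates and at -0.06, -0.17, -0.14, -0.22, -0.17 and -0.11 in the 6 RM replicates. Every RM replicate lay below every BY replicate, by 0.16 on average (SE 0.02). PHD1 stood at -0.02, 0.04, 0.04, 0.01, 0.10 and 0.02 in BY and at 0.29, 0.43, 0.34, 0.40, 0.28 and 0.29 in RM. Here every RM replicate lay above every BY replicate, by 0.31 on average (SE 0.03). The share of all probes whose parental replicates stood apart in this way was not computed. By another measure, RM and BY differed in 50.6% of all probes tested (limma, adjusted p under 0.05). Nothing is read from which members stood apart.

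RME1 was the gene whose BY replicates were not alike. It stood at -0.09 and -0.01 in BY replicates 1 and 2, at -0.32, -0.48 and -0.42 in BY replicates 4, 5 and 6, and had no value in BY replicate 3. RM values were 0.14, -0.08, -0.04, -0.06, -0.01 and 0.01. RM replicates overlapped BY replicates 1 and 2 and lay above the other 3. The mean difference was 0.26 (SE 0.10) with all BY replicates and 0.40 (SE 0.06) without replicates 1 and 2.

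Segregants covered a far wider range than either parent. IME1 ran from -1.79 through a median of -0.11 to 1.10 in segregants, with an SD of 0.43 against a pooled SD of 0.04 among parental replicates. RME1 ran from -1.11 through -0.16 to 0.72, with an SD of 0.40 against 0.15. PHD1 ran from -1.52 through -0.02 to 1.55, with an SD of 0.66 against 0.05. PHD1 was thus the most variable of these genes, and 94.1% of the 6457 probes with enough segregant values had a smaller SD. The median SD over those probes was 0.25, and 84.5% lay below IME1 and 81.9% below RME1. IME1's rank rested on the 18 segregants whose titles begin with 21 to 26: in titles 1 to 20 its SD was 0.26, with 53.3% of probes below it, while 80.4% lay below RME1 and 91.4% below PHD1. The parental SDs are not a like measure of noise, because some RM replicates are means of 2 or 3 pairs and each segregant is 1 pair. In titles 1 to 20 the 2 arrays of a segregant differed with an SD of 0.16, 0.27 and 0.36 for IME1, RME1 and PHD1.

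Many segregants lay outside all parental replicates, on both sides. For PHD1, 56 segregants (49.6% of all, exact binomial 95% interval 40.02 to 59.1%) were below the lowest and 22 (19.5%, 12.6 to 27.98%) were above the highest parental replicate. For IME1, which 1 segregant lacked, 35 (31.2%, 22.8 to 40.7%) were below and 19 (17.0%, 10.5 to 25.2%) above. For RME1, 30 (26.5%, 18.7 to 35.7%) were below and 20 (17.7%, 11.2 to 26.0%) above. These intervals cover counting error only, not the noise of a single segregant pair set against a parental range that partly comes from averaged repeats. At least 14 of the 35 segregants low in IME1 were in titles 21 to 26, where 17 had a value. The 4 highest in IME1 are those with a raised chromosome II median, described below. The share of segregants outside the parents was not computed over all probes, so these counts have no background and show nothing particular to these genes. The segregant mean fell 0.26 under the parental midpoint for PHD1, 0.12 under it for IME1 and 0.06 under it for RME1. Within titles 1 to 20 IME1's mean of -0.06 lay at its midpoint of -0.06, while the mean minus the midpoint was -0.23 for PHD1 and -0.07 for RME1.

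**Figure D1:**
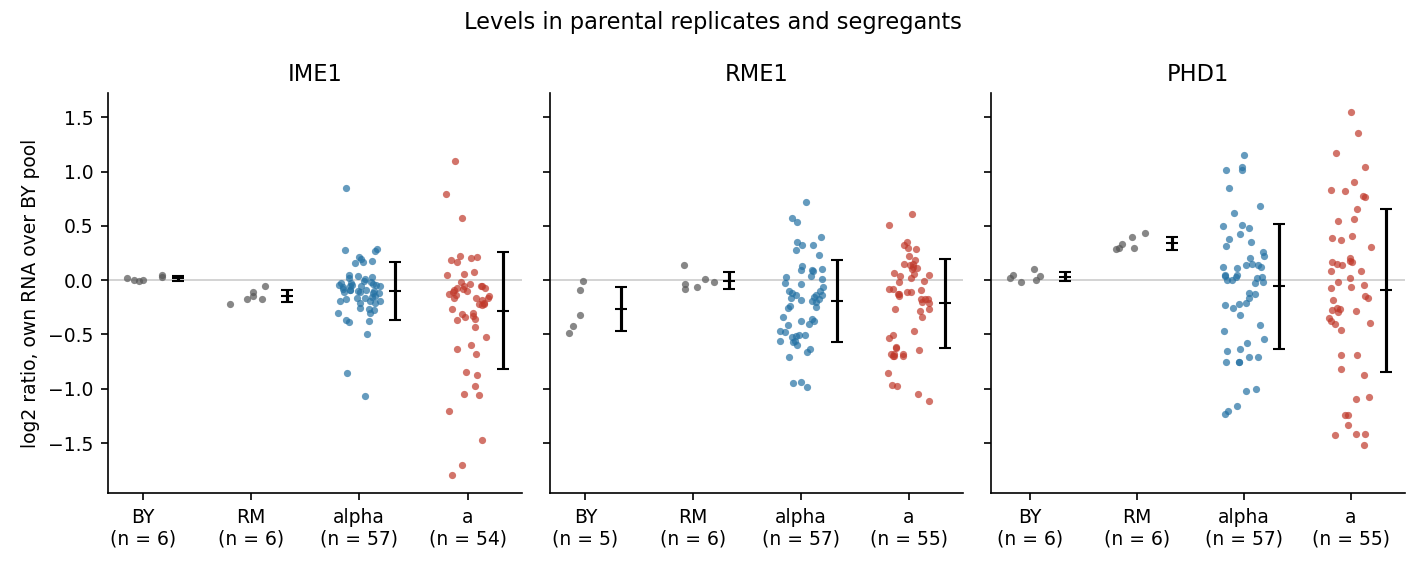
Levels of IME1, RME1 and PHD1, as log2 ratio of own RNA over the BY pool, in replicates of BY and RM and in alpha and a segregants, with a bar for the mean ± SD beside each group. Parental replicates are tightly grouped except RME1 in BY, while segregants spread above and below both parents, with PHD1 between -1.52 and 1.55.

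RME1 and PHD1 had close means in both mating types. RME1 averaged -0.21 ± 0.41 (SD, n = 55) in a and -0.19 ± 0.38 (SD, n = 57) in alpha segregants, a difference of -0.02 (SE 0.07). PHD1 averaged -0.09 ± 0.75 (SD, n = 55) and -0.06 ± 0.58 (SD, n = 57), a difference of -0.04 (SE 0.13). The ranges of the groups overlapped almost fully for both genes. IME1 averaged -0.28 ± 0.54 (SD, n = 54) in a and -0.10 ± 0.27 (SD, n = 57) in alpha segregants, a difference of -0.18 (SE 0.08). Across the arrays 1.52% of 6457 probes differed between a and alpha segregants at an adjusted p under 0.05.

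The difference in IME1 between mating types came with another feature of the labels. Segregant titles begin with a number from 1 to 26, and the meaning of that number is not stated. In titles 1 to 20 IME1 averaged -0.05 ± 0.31 (SD, n = 41) in a and -0.06 ± 0.21 (SD, n = 54) in alpha segregants, a difference of 0.02 (SE 0.06). Thus without titles 21 to 26 the difference was near 0 and had the opposite sign. Titles 21 to 26 held 18 segregants, of which 14 were a, 3 alpha and 1 without a mating type, so title number and mating type were unevenly mixed.

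IME1 was low in nearly all segregants of titles 21 to 26. It ran from -1.79 through a median of -0.87 to -0.12 in the 17 of them with a value, against -0.52 through -0.09 to 1.10 in the 95 segregants of titles 1 to 20. The 12 lowest IME1 levels of the cross were all in titles 21 to 26, and 14 of the 17 lay below the lowest of titles 1 to 20. The means were -0.92 ± 0.46 (SD, n = 17) and -0.06 ± 0.26 (SD, n = 95). Within titles 21 to 26 the alpha segregants stood at -0.12, -0.86 and -1.06 and the a segregants between -1.79 and -0.37. The low alpha levels each rested on 1 array of the pair. Segregant 21-1-d read 0.22 with own RNA in Cy5 and -1.93 in Cy3, and 21-5-c read -1.98 and -0.15. This division of the titles was made after IME1's levels had been seen, and no test of IME1 is given for it.

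RME1 and PHD1 showed no such shift. RME1 averaged -0.15 ± 0.51 (SD, n = 18) in titles 21 to 26 and -0.20 ± 0.38 (SD, n = 95) in titles 1 to 20. PHD1 averaged -0.25 ± 1.06 (SD, n = 18) and -0.05 ± 0.56 (SD, n = 95), with both the lowest and the highest PHD1 levels of the cross in titles 21 to 26. Elsewhere on the arrays 564 of 6457 probes (8.73%) differed between the title sets (limma with mating type as a term, adjusted p under 0.05). IME1's difference in that fit was -0.89. The sets were divided after IME1's levels had been seen, so that value is a description and its place among all probes is not read.

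**Figure D2:**
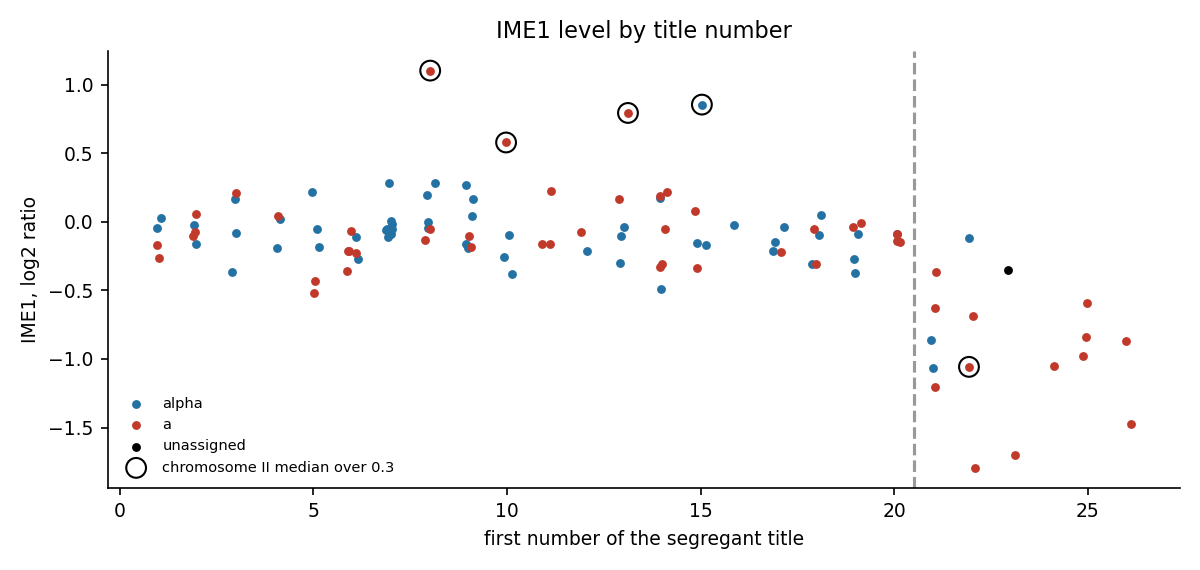
IME1 level (log2 ratio, vertical axis) of each segregant against the first number of its title (horizontal axis), coloured by mating type, with a dashed line between titles 20 and 21 and a ring around the 5 segregants with a raised chromosome II median. Levels to the right of the line run from -1.79 to -0.12, and the 4 highest levels to its left are all ringed.

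The 2 arrays of a segregant gave different IME1 levels in titles 21 to 26. Over the 13 segregants there with IME1 on both arrays, the array with own RNA in Cy5 and the array with own RNA in Cy3 correlated with r = -0.268, and their differences had an SD of 1.10, larger than that of 98.96% of probes. Segregant 22-5-d, the lowest, read -2.61 with own RNA in Cy5 and -0.98 in Cy3. Segregant 21-5-c read -1.98 and -0.15, and segregant 21-3-d read -0.48 and -1.93. The low mean was present in both dye orientations, at -0.99 in Cy5 and -0.89 in Cy3, while the order of the segregants was not shared.

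In titles 1 to 20 the arrays of a pair were close for IME1. It correlated with r = 0.831 over 87 segregants, and the SD of the differences was 0.16, under the median of 0.23 over probes. The differences were larger for RME1, with an SD of 0.27 (larger than that of 65.3% of probes), and for PHD1, with 0.36 (84.5%). RME1 correlated with r = 0.780 (n = 93) in titles 1 to 20 and 0.880 (n = 18) in titles 21 to 26, and PHD1 with 0.818 (n = 92) and 0.879 (n = 17). In titles 21 to 26 r was thus below 0 for IME1 and above 0.8 for the others, although PHD1's differences there had an SD of 0.53, larger than that of 93.8% of probes. These correlations describe the spots: the arrays of a pair share a strain, and whether they share an RNA extract is not stated.

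**Figure D3:**
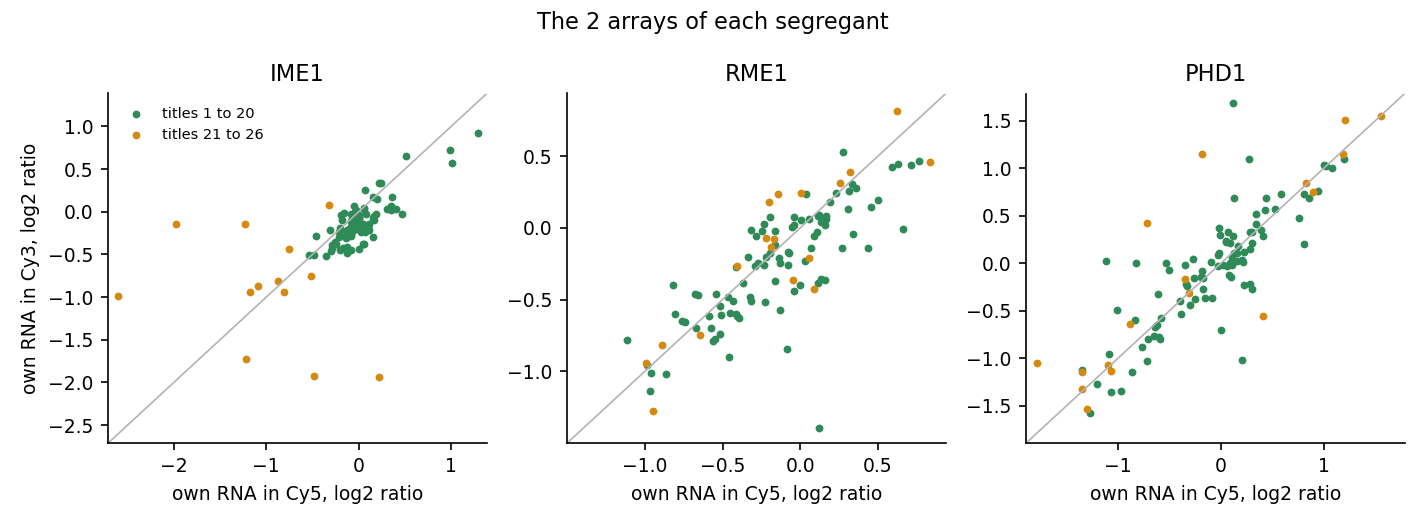
Levels (log2 ratio) of each gene on the array with own RNA in Cy5 (horizontal axis) and in Cy3 (vertical axis), 1 point per segregant, with the line of equality, and titles 21 to 26 in orange. Points follow the line for RME1 (r = 0.80) and PHD1 (r = 0.84), but some lie far from it, with differences of up to 1.52 and 1.57. IME1 points of titles 21 to 26 scatter far from the line (r = -0.268) while those of titles 1 to 20 follow it (r = 0.831).

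The highest IME1 levels fell in segregants with a raised chromosome II. Segregants 8-1-a, 15-5-b, 13-2-c and 10-1-c had IME1 levels of 1.10, 0.85, 0.79 and 0.58, and the next highest was 0.28. The median level of all chromosome II probes was 0.75, 0.64, 0.82 and 0.66 in these 4 segregants and reached at most 0.12 in all segregants but 5. The fifth, 22-2-d, had a chromosome II median of 0.45 and an IME1 level of -1.06, and it belongs to titles 21 to 26. IME1 itself lies on chromosome X, whose median stayed under 0.3 in them.

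These 4 segregants stand out by their chromosome II median, so high levels of chromosome II probes in them follow from the choice and are given as a description. They held the 4 highest levels of titles 1 to 20 for 138 of 382 chromosome II probes (36.1%). Of 5228 named probes on other chromosomes, 2 did so, IME1 and CNE1, the latter on chromosome I and related to the chaperone calnexin, and IME1 is the gene whose levels led to these segregants. The cutoff of 0.3 for a raised median was chosen after the values were seen, and DNA copy number was not measured. Segregants with another chromosome raised had IME1 levels within the range of the rest: -0.17 in 9-4-d (chromosome XIII), -0.31 in 14-6-d (chromosomes IV and IX) and -0.14 in 20-2-d (chromosome XIV). Outside these 4 segregants IME1 was the steadiest member in titles 1 to 20, with a mean of -0.09 ± 0.18 (SD, n = 91) and a range of -0.52 to 0.28.

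Transcripts that varied with each gene were sought in limma fits of all probes on the level of 1 member, with mating type as a term. With IME1 level, 389 of 6457 probes (6.02%) passed an adjusted p of 0.05. Of these 124 were on chromosome II, all in the same direction as IME1, or 32.5% of the 382 chromosome II probes against 4.36% of the rest. Without titles 21 to 26 there were 498 calls (7.74%), of which 236 lay on chromosome II. Without the 5 segregants with a raised chromosome II median there were 182 calls (2.82%), with 8 on chromosome II. The count of calls thus rested to a large part on those 5 segregants.

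The genes most like IME1 were SHE1 (r = 0.537), a spindle protein, FAT1 (0.521), a fatty acid transporter, and STB5 (0.508), a transcription factor, where r is over all segregants with a mating type and both values, after subtraction of mating-type means. PEX32, NBP35 and CST26 followed with 0.499, 0.488 and 0.487. SHE1, FAT1, PEX32 and CST26 are on chromosome II. In titles 1 to 20 alone the r with IME1 was 0.340 for SHE1, 0.735 for FAT1, 0.588 for PEX32 and 0.584 for CST26. Without the raised chromosome II segregants as well it was -0.118, 0.448, 0.337 and 0.148 for the same genes in that order. STB5 and NBP35 had 0.06 and -0.07 in titles 1 to 20. The most opposed gene was HOP2, which acts in homologue pairing in meiosis, with r = -0.572, followed by PTC5, SRL4, MTG1, ORC6 and ZIP2 between -0.473 and -0.439. HOP2 fell by 0.62 per log2 unit of IME1 (SE 0.09, adjusted p = 2.84e-07 in limma), but the slope was -0.05 (adjusted p = 0.756) without titles 21 to 26. In titles 1 to 20 the r with IME1 of these 6 genes lay between -0.16 and 0.03.

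The early targets of Ime1 that passed with it ran in both directions. Of 21 early meiotic genes tested, 1 rose with IME1 (SPO13, slope 0.18, SE 0.06, adjusted p = 0.0409) and 2 fell (HOP2 and ZIP2), a share of 14.3% beside 6.02% of all probes, and the list's median slope was -0.04 beside 0.00. IME2, the kinase gene that Ime1 turns on first, had an r of 0.00 with IME1. Without titles 21 to 26 the list held 0 rising and 1 falling gene (4.76% beside 7.74% of all probes). Of 30 regulators of IME1, 2 rose with it: the corepressor gene TUP1 (slope 0.18, SE 0.05, adjusted p = 0.00843) and RIM20 (slope 0.20, SE 0.06, adjusted p = 0.0254) of the pathway that senses alkaline pH. The share was 6.67%, close to the 6.02% of all probes.

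The other lists held 0 or 1 call each, at or near what 6.02% of all probes would give for lists of their size. Middle and late sporulation genes had 1 of 20 falling with IME1 (DIT2, 5% of the list) and 0 rising, and haploid-specific genes had 1 of 10 rising (RDH54, 10% of the list) and 0 falling. Of 27 filamentous growth regulators, 0 passed in either direction. These values come from the same limma fit.

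RME1 level went with a large part of the transcriptome. In its fit 2552 of 6456 probes (39.5%) passed, of which 1041 rose and 1511 fell with RME1. The number did not rest on titles 21 to 26, without which it was 2489 of 6433 (38.7%). It was 2108 and 2035 when RME1 was read from one array of each pair and the other probes from the other array. Over named probes, 238 had an r with RME1 above 0.5 in size, against 4 for IME1 and 1 for PHD1.

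The genes most like RME1 kept their r in both mating types. GSY2, a glycogen synthase, had an r of 0.741 in all segregants with a mating type, 0.806 in a and 0.667 in alpha segregants, and rose by 1.23 per log2 unit of RME1 (SE 0.11, adjusted p = 2.98e-17 in limma). NNR1, a repair enzyme of damaged NADH, had 0.721, TFS1, an inhibitor of the vacuolar carboxypeptidase Y, 0.704, and the reductase gene YJR096W 0.699. FMP33 followed with 0.685 and YPF1, a signal peptide peptidase relative, also with 0.685. At the other end were MRX12 (r = -0.614), PRO1 (-0.587), the first enzyme of proline synthesis, GCD1 (-0.583), a subunit of translation initiation factor eIF2B, SFH5 (-0.572), UTP15 (-0.569), an early ribosome assembly factor, and URA5 (-0.564), an enzyme of pyrimidine synthesis. HSP12, a stress-induced membrane protein gene whose level also separates segregants of this cross, had an r of 0.556 with RME1, -0.249 with PHD1 and -0.05 with IME1.

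The share of each pathway list called with RME1 ran from 10% to 43.3%, beside 39.5% of all probes. Of 30 regulators of IME1, 9 rose and 4 fell with RME1 (43.3%), led by the stress activator gene MSN4 (slope 0.87, SE 0.10, adjusted p = 3.3e-12). The protein kinase A genes TPK2 (catalytic subunit, slope 0.34, SE 0.06, adjusted p = 2.31e-06) and BCY1 (regulatory subunit, slope 0.29, SE 0.05, adjusted p = 1.15e-05) rose too, as did RIM4 (slope 0.72, SE 0.14, adjusted p = 1.39e-05), which encodes an RNA-binding protein of meiosis. Of 27 filamentous growth regulators, 8 rose and 3 fell (40.7%), with YAK1, a kinase opposed to protein kinase A, at a slope of 0.37 (SE 0.06, adjusted p = 1.11e-06).

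The lowest shares were in the remaining lists. Early meiotic genes had 3 of 21 rising with RME1 and 2 falling (23.8%), with DMC1, the meiotic recombinase gene, at 0.35 (SE 0.11, adjusted p = 0.00742). Middle and late sporulation genes had 1 of 20 rising, the spore wall gene SPS100 at 1.18 (SE 0.28, adjusted p = 0.000386), and 1 falling. Haploid-specific genes had 1 of 10 rising, NEJ1 of end joining at 0.26 (SE 0.06, adjusted p = 0.000338), and 1 falling. IME1, the gene that Rme1 is known to repress, had a slope of -0.05 (95% interval -0.25 to 0.15, adjusted p = 0.734) on RME1. With RME1 read from Cy3 arrays and IME1 from Cy5 arrays the slope was -0.29 with an adjusted p of 0.0291, and with RME1 from Cy5 and IME1 from Cy3 arrays it was 0.14 with an adjusted p of 0.319, so both the call and the sign depended on which arrays were read.

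PHD1 level, despite its wide range, went with few transcripts. In its fit 11 of 6456 probes (0.17%) passed, 7 rising and 4 falling with PHD1. By far the closest was MMO1 (YKL044W), the gene just before PHD1 on the same strand of chromosome XI, which RefSeq (assembly R64) lists as a separate gene that does not overlap it. MMO1 had an r of 0.712 with PHD1 over segregants, 0.703 in a and 0.771 in alpha segregants, and rose by 0.50 per log2 unit of PHD1 (SE 0.05, adjusted p = 8.54e-15 in limma). Read across dye orientations the slope was 0.45 (adjusted p = 2.45e-09) and 0.49 (adjusted p = 9.07e-13), so MMO1 passed with the genes taken from separate arrays.

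MMO1 and PHD1 varied together in both title sets, with no test of the difference between them. In titles 1 to 20 the genes correlated with r = 0.813 (n = 94) and had SDs of 0.50 and 0.57. In titles 21 to 26 they correlated with r = 0.869 (n = 18), but MMO1 had an SD of 0.22 where PHD1 had 1.06. MMO1 differed little between the parents, with 0.01 ± 0.10 in BY and 0.13 ± 0.04 in RM (SD, n = 6 each). Like PHD1 it spread over both parents in segregants, from -1.37 to 1.07.

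No other near neighbour of PHD1 shared its variation to this degree. Of 76 measured genes among the 40 on either side, MMO1 alone had an r above 0.3. VPS24, next but one after PHD1, had 0.294, and SPC42, the next gene, had -0.05. In titles 1 to 20 alone VPS24 (0.366), NUP120 (0.354) and NUP100 (0.322) were above 0.3 too, beside 0.813 for MMO1. Among 75 neighbours of IME1 the adjacent genes FIP1 and RPL43B had 0.153 and 0.127, and the highest r was 0.414. Among 70 neighbours of RME1, 12 had an r above 0.3, with NQM1 at 0.531 just before it and TAM41 at 0.559 next but one after it, but the highest, 0.676, was ROM1, which lies 23 genes away. Those 12 were spread unevenly from 30 genes before RME1 to 40 genes after it, and the lowest r among its neighbours was -0.471.

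**Figure D4:**
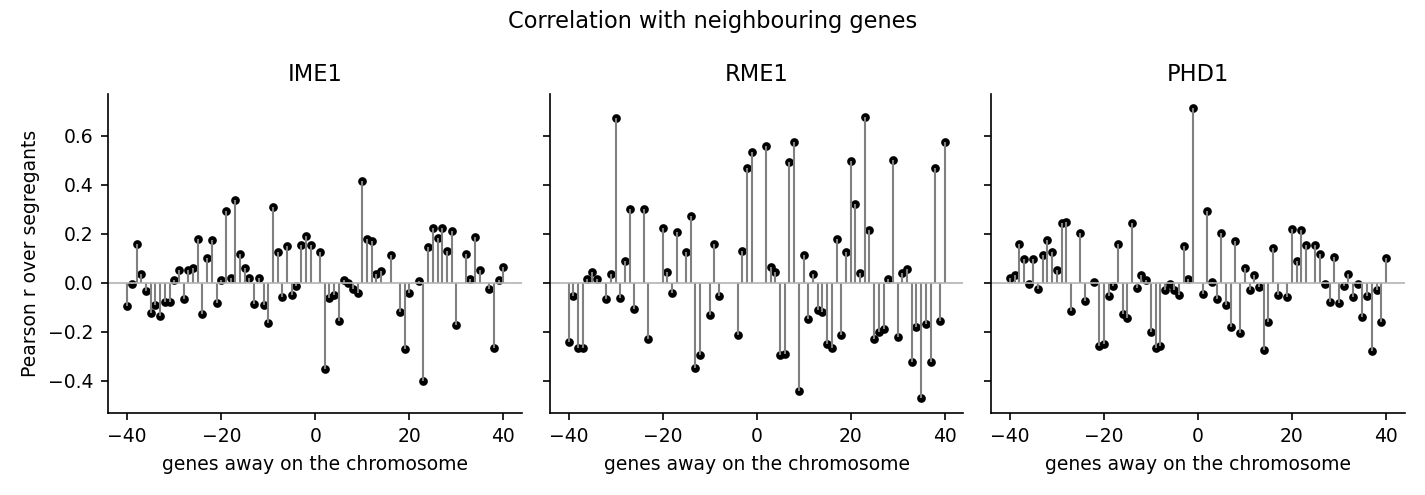
Pearson r over segregants, after subtraction of mating-type means, between each gene and its measured neighbours up to 40 genes away on either side (horizontal axis, in genes). PHD1 has 1 tall line, its preceding gene MMO1 at 0.712; RME1 has tall lines at many distances and IME1 has none above 0.414.

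The remaining genes called with PHD1 were on other chromosomes. PHO80, the cyclin of the phosphate pathway, rose by 0.08 per log2 unit of PHD1 (SE 0.02, adjusted p = 0.0287), and YBR238C by 0.22 (SE 0.05, adjusted p = 0.04). PRM7 passed on both of its probes, with slopes of 0.56 (SE 0.13) and 0.69 (SE 0.17) and an adjusted p of 0.0417 on each, and lies on chromosome IV, as does BSC1, with a slope of 0.76 (SE 0.18, adjusted p = 0.0417). RAX1, which helps to place buds in diploid cells, rose by 0.10 (SE 0.03, adjusted p = 0.0447). BNS1 (slope -0.22, SE 0.04, adjusted p = 0.00415), a relative of the mitotic exit factor SPO12, SAP4, RHB1 and 1 probe with no gene name fell. With PHD1 and the probes read from opposite arrays 1 and 2 probes passed, in place of 11. The r with PHD1 across opposite arrays was -0.378 and -0.377 for BNS1, where it was -0.438 on averaged arrays, 0.301 and 0.358 for 1 probe of PRM7 (0.373 averaged), and 0.280 and 0.387 for BSC1 (0.365 averaged).

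Filamentous growth regulators had 0 calls with PHD1 in limma, where 0.17% of all probes were called, so the count shows nothing particular to them. Of the 27, 4 had an unadjusted p under 0.05 (10.4% of all probes did), and the list's median slope was 0.03 beside 0.00 over all probes. FLO11 had an r of 0.330 with PHD1 and 0.02 with RME1 over 110 segregants. The other 4 lists also had 0 calls with PHD1, with 2 of 30 regulators of IME1, 1 of 21 early meiotic, 3 of 20 middle and late sporulation and 1 of 10 haploid-specific genes at an unadjusted p under 0.05.

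RME1 and PHD1 leaned in opposite directions across segregants. In a segregants r was -0.354 (n = 55, permutation p = 0.00788, 0.0473 after adjustment over 6 relations) and Spearman's rho was -0.313 (p = 0.0201, adjusted 0.121). In alpha segregants r was -0.315 (n = 57, permutation p = 0.0171, adjusted 0.0514) and rho was -0.267 (p = 0.0449, adjusted 0.135). All tests were two-sided. Without the 2 segregants whose RME1 was farthest from the median, r in a segregants was -0.253 with an adjusted p of 0.203, and in alpha segregants it was -0.320 with an adjusted p of 0.104. Without titles 21 to 26 the values were -0.289 (adjusted p = 0.203) and -0.321 (adjusted p = 0.115). The relation in a segregants thus rested on few samples, while its sign was negative in every alternative tried, and r did not differ detectably between mating types (difference -0.04, permutation p = 0.836).

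The fits over all probes used the same segregants and levels, so their sign follows from these r and adds no support. PHD1 fell by 0.57 per log2 unit of RME1 (95% interval -0.87 to -0.27, adjusted p = 0.0014) in limma, and ranked 1210 of 6456 probes by p in a fit in which 39.5% of probes passed. In the opposite fit RME1 had a slope of -0.20 on PHD1 (95% interval -0.30 to -0.09, adjusted p = 0.0938) and did not pass. Both fits describe the same relation, with unadjusted p of 0.000262 and 0.000276 in limma. The adjusted values differ because 39.5% of probes passed with RME1 and 0.17% with PHD1. IME1 showed no detectable relation with either gene within a mating type. Its r with RME1 was -0.05 (permutation p = 0.74) in a and -0.06 (p = 0.682) in alpha segregants, and its r with PHD1 was 0.149 (p = 0.281) and 0.08 (p = 0.564).

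**Figure D5:**
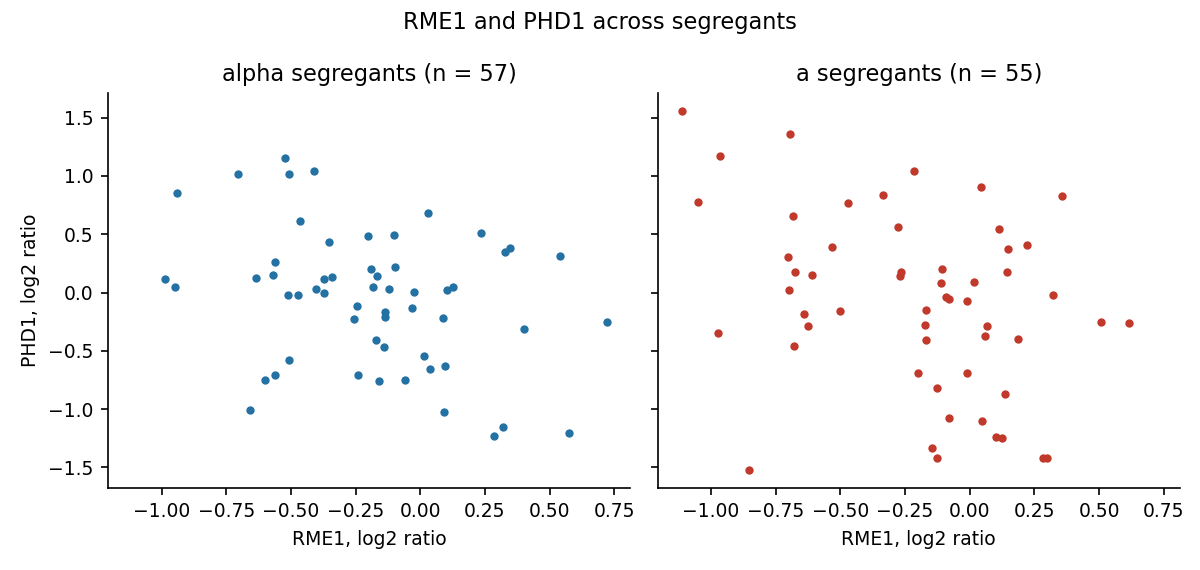
PHD1 level against RME1 level, both as log2 ratio, in 57 alpha and 55 a segregants, 1 point per segregant. Points slope down from upper left to lower right in both panels (r = -0.315 and -0.354) with a wide scatter.

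Segregants were also compared by 4 transcripts that stand for the locus inherited, LEU2 and URA3 (which RM lacks), HO, and LYS2 (which BY4716 lacks), each classed by the nearer parental mean, with mating type as a term. For LYS2 the BY mean came from 1 replicate. None of the members differed between classes. Of the 12 values, 0 passed an adjusted p of 0.05 in limma and 0 an unadjusted p of 0.05, and the lowest unadjusted p was 0.116. The background was 3.81% of probes for LEU2, 0.929% for URA3, 0.108% for HO and 0.464% for LYS2. The 95% intervals of the differences lay between -0.32 and 0.32, so differences of that size are compatible with these data. IME1 was 0.14 higher in segregants without LEU2 transcript (SE 0.09, adjusted p = 0.441) and 0.12 lower in those with LYS2 transcript (SE 0.08, adjusted p = 0.489). The LEU2 difference was 0.02 with no mating type term and 0.05 without titles 21 to 26. For LYS2, which lies on chromosome II, the same alternatives gave -0.14 and -0.08.

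Between the parents 50.6% of 6324 probes were called in limma, 28.3% higher and 22.2% lower in RM. The shares called were 58.6% of the regulators of IME1 and 57.7% of the filamentous growth regulators tested. They were 63.2% of early meiotic and 50% of middle and late sporulation genes. These shares are not far from that of all probes, so the number of calls is not read as a result about these lists. Of 29 regulators of IME1 tested, 16 were higher in RM and 1 lower, with a median difference of 0.20 beside 0.01 over all probes. They include MCK1 (0.42, SE 0.04, adjusted p = 4.24e-06), a kinase that promotes IME1 expression, MSN2 (0.54, SE 0.07, adjusted p = 1.51e-05), BCY1 (0.63, SE 0.08, adjusted p = 1.8e-05) and RIM101 (0.37, SE 0.05, adjusted p = 3.17e-05), the repressor at the end of the alkaline pH pathway. Of 26 filamentous growth regulators, 11 were higher and 4 lower, with TEC1 at 0.86 (SE 0.04, adjusted p = 1.21e-09), GPA2 at 0.74 (SE 0.07, adjusted p = 1.27e-06) and HMS2 at -0.88 (SE 0.06, adjusted p = 9.07e-08). Under quantile normalization 5 of them were higher and 4 lower, or 34.6% of the list, beside 2248 of 6324 probes called in that setting (1177 higher and 1071 lower). Those changes ran in both directions within the list.

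Meiotic genes were lower in RM where they differed, apart from 1. Of 19 early meiotic genes tested, 11 were lower and 1 higher, with a median of -0.30, and DMC1 was lower by 1.98 (SE 0.20, adjusted p = 3.6e-05). Of 12 middle and late sporulation genes tested, 6 were lower and 0 higher, with a median of -0.25, and GAS2 stood at -2.27 (SE 0.17, adjusted p = 1.65e-06). BY replicates 1 and 2 carried many of these values: with BY replicates 3 to 6 alone, 9 early meiotic genes could be tested, with 3 lower and 1 higher and a median of -0.10, and 7 middle and late genes, with 2 lower and 1 higher. These calls were 44.4% and 42.9% of the lists, beside 3324 of 5267 probes called in that setting (1731 higher and 1593 lower).

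Between mating types the lists held 1 call in limma. HOP2 was 0.52 higher in a than in alpha segregants (SE 0.09, adjusted p = 4.41e-06), 1 of 21 early meiotic genes, and 0.21 higher (SE 0.04, adjusted p = 9e-05) without titles 21 to 26. The other 4 lists held 0 called genes in either direction. At an unadjusted p under 0.05 they held 2 of 30 regulators of IME1, 2 of 20 middle and late sporulation genes, 5 of 27 filamentous growth regulators and 3 of 10 haploid-specific genes, beside 11.7% of all probes. Under quantile normalization 1 haploid-specific gene was called.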

How the data were processed

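The values were deposited by the authors as 1 table of log ratios, reference over own RNA as inferred above, and were read as log2; each array had been centred to a mean of 0 (largest absolute mean 1.16e-08). The labels do not describe background correction, spot filters or other upstream steps, and no signal intensities were used, so signal over background is unknown. Of 7085 probes, 5645 had 1 gene symbol in the platform annotation and 1440 had none. The sign was turned, the 2 arrays of a pair were averaged (1 array where the other lacked the probe) and RM repeats were averaged within a replicate number. Chromosomes and gene order are from RefSeq assembly R64.

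All fits used limma 3.58.1 (lmFit, eBayes) in R 4.3.3 with Benjamini-Hochberg adjustment over all probes and a threshold of 0.05: RM against BY for probes with at least 3 replicates of each parent, and segregants for probes with values in at least 80% of them. Pairs of members were tested within mating type by 100000 permutations, adjusted over 6 relations, and the difference of r by 10000. Tables and permutations were made in Python 3.11.15 with scipy 1.17.1, pandas 2.3.3 and numpy 2.4.6. Tested on simulated data of 6527 probes, the parental fit recovered 85% of 100 changes of 0.5 and 98% of 100 of 1 log2 unit. With 6866 probes the mating-type fit recovered 95% and 98%, and the member-level fit 89% and 99% of slopes of those sizes. The simulated noise was normal and independent between probes, with no missing values. Both parents had the SD of BY, and the member-level run had no mating type term. The rates thus check the code and are not the power of the fits on these data.

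The members and the gene lists were chosen with earlier results of these data known, and 1 list is not reported here. Named genes are the members, mating-type and deletion markers, the 6 genes with the highest and the 6 with the lowest r per member over at least 90 segregants, and up to 4 called genes per list and comparison with the lowest adjusted p. CNE1, neighbours of the members, HSP12, FLO11, IME2 and the segregants named were picked after their values were seen. The deviations of BY and RM replicates of the same number correlated with r from 0.116 to 0.465 over 3888 probes. Only 3 BY replicates correlated best with the RM replicate of their own number, so whether the numbers pair the parents is unclear. The main parental fit did not pair them, and a replicate block was run as an alternative. Alternatives covered the arrays used, centring, quantile normalization, filters, replicates left out, title numbers and segregants with a raised chromosome II. No sequence is shown.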

Additional observations from a re-analysis of the deposited data

How the results depend on the processing

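Of 270 recomputed values 250 kept their direction and side of the threshold or moved by less than the spread. The count of probes differing between the parents, 3197, was 3250 with a replicate block and 2842 to 3198 with single replicates left out, and the block moved no count of a list by over 1.5 times. The same omissions gave RM minus BY differences of -0.18 to -0.15 for IME1, 0.20 to 0.32 for RME1 and 0.29 to 0.32 for PHD1. RME1's difference was 0.42 under quantile normalization. Calls between mating types, 98, were 155 with STE3 as the marker, 58 without titles 21 to 26 and 63 with the title set as a covariate. The title set itself gave 1041 calls from Cy5 and 1215 from Cy3 arrays alone, in place of 564. LEU2 calls, 246, were 572 with no mating type term, and LYS2 calls, 30, were 55 with none and 9 without titles 21 to 26. IME1-level calls, 389, were 182 without the segregants with a raised chromosome II. PHD1-level calls, 11, were 1 and 2 across dye orientations, 22 without titles 21 to 26 and 17 with the title set as a covariate. The RME1 and PHD1 relation in a segregants missed the threshold with RME1 from Cy5 and PHD1 from Cy3 arrays (r = -0.311), without the 2 farthest samples (-0.253), with median centring (-0.342) and without titles 21 to 26 (-0.289), and in alpha segregants it passed with RME1 from Cy3 and PHD1 from Cy5 arrays (-0.368). Alternatives by title number or chromosome II, and those of the title-set fit, were chosen after seeing the data. The cause was not tested for any of these. The number of arrays limits the precision: BY had 6 pairs, RM 6 numbers, and each segregant 1 pair.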

Other observations

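Segregant 23-3-d had no STE2 value and entered no comparison of mating types. Its STE3 level was 0.90, and its levels were -0.35 for IME1, 0.65 for RME1 and -0.31 for PHD1. RME1 in 23-3-d was the second highest of the cross after 21-5-c at 0.72. Segregant 21-5-c lay close to the split, with a STE2 level of 2.08 and a STE3 level of 0.10, and had an IME1 level of -1.06.

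The segregants on either side of the STE2 split included some with STE2 and STE3 pointing to different mating types. Segregants 13-1-a and 7-5-d had STE2 levels of 2.09 and 1.96 and STE3 levels of -5.80 and -5.77, and their IME1 levels were -0.30 and -0.11. Segregant 22-5-d, just above the split at 2.49 with STE3 at -2.95, had the lowest IME1 level of the cross, -1.79.

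The 4 segregants with a raised chromosome II median and high IME1 had RME1 levels of -0.64 in 8-1-a, -0.68 in 10-1-c, -0.47 in 13-2-c and -0.47 in 15-5-b. Segregants 9-4-d, 14-6-d and 20-2-d, with other chromosomes raised, had RME1 levels of -0.66, -0.70 and -0.61, and 22-2-d had -0.33. All 8 segregants with a raised chromosome median therefore had RME1 under the segregant median of -0.16. Their PHD1 levels ran from -1.01 to 0.83, on both sides of the PHD1 median of -0.02. This was noticed in the data and was not tested. How many other probes lay on a single side of their median in these segregants was not counted. The RME1 count therefore shows nothing particular to RME1.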
